A study of Homo sapiens with 30 samples.

Results

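ATF4 and 9 genes of its amino acid and stress program (ASNS, PSAT1, PHGDH, SHMT2, DDIT3, TRIB3, CHAC1, DDIT4 and SESN2) were followed across 4 derivatives of RWPE1, a line of normal human prostate epithelial cells. The 10 genes were taken by symbol from an expression table of 26249 genes, and each of them passed the filter used below, a minimum FPKM (fragments per kilobase of transcript, scaled to the mapped fragments of the library) of 1. The vector line carried the empty retroviral vectors pQCXIH and pBabe-puro. The ERG line expressed FLAG-tagged ERG, an ETS family transcription factor, from pQCXIH. The mAKT line expressed myristoylated AKT, a constitutively active kinase, from pBabe-puro, and the ERG/mAKT line carried both. All 4 lines were made by retroviral transduction and grown in serum-free keratinocyte medium with EGF, bovine pituitary extract, puromycin and hygromycin, and the labels name no amino acid withdrawal or stress agent. RNA-seq was done on 3 libraries per line, 12 of the 30 samples of the series. The other samples were ATAC-seq and ChIP-seq of these lines, of RWPE1-ERG S96E, which expresses a phosphomimetic ERG mutant, and of VCaP, a prostate cancer cell line with the TMPRSS2-ERG fusion, and their inputs.

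The table gives 1 pooled FPKM per gene and line, so no SD, interval or test between lines could be computed, and the read depth behind a value is unknown. Ratios are therefore described by size, a gene is counted where the ratio of its FPKM values passed 1.5-fold, and counts are read against the share of all genes that passed it in the same comparison. Whether a ratio exceeds the spread between the 3 libraries cannot be said from the pooled FPKM values, which alone were used here.

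ATF4 is a basic leucine zipper factor made when eIF2α is phosphorylated, which slows general translation but favors the ATF4 mRNA, and growth signals through mTORC1 also raise its translation. Its protein can therefore change with no change of its mRNA. With C/EBP partners ATF4 activates genes for amino acid synthesis and transport, tRNA charging and, under lasting stress, growth arrest and death. AKT activates mTORC1, while DDIT4 and SESN2, both in the ATF4 program, restrain it.

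Many ATF4 targets carry the 8-base C/EBP-ATF response element TGATGNAA, so the members' promoters were searched for it on both strands. In the 500 bases before the start on GRCh37, it was found in 4 of the 10 genes and in 3.33% of 11389 expressed genes. That window was chosen after seeing the data. The 4 sites are printed because they tie the sequence to the accessibility data, 5′ to 3′ on the gene's strand with the element, or its reverse complement, in capitals. ASNS lies on the minus strand at chr7:97501770-97501799, DDIT3 on the minus strand at chr12:57914585-57914614, CHAC1 on the plus strand at chr15:41245449-41245478 and SESN2 on the plus strand at chr1:28585722-28585751.
ASNS: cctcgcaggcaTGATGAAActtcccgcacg
DDIT3: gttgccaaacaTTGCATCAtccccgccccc
CHAC1: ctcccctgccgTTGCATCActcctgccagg
SESN2: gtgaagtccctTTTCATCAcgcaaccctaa
The ASNS element spans bases -68 to -61 relative to the start, and that of CHAC1 spans -209 to -202. The SESN2 element spans -296 to -289, and that of DDIT3 spans -306 to -299. The elements of ASNS, CHAC1 and SESN2 lay inside ATAC-seq peaks of all 3 lines used for accessibility (ERG, mAKT and ERG/mAKT). The DDIT3 element lay outside the peak in each of them, since those peaks began at -269, -262 and -241. The window planned beforehand was the shorter RefSeq promoter on GRCh38 (250 bases before to 50 after the start), available for 9 of the 10 genes. There the element was found for ASNS and CHAC1 and in 4.46% of 27305 genes. As the genes were picked as an ATF4 program, these counts are no independent test of that link. A match is a string of letters and does not show that ATF4 is bound.

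The transgenes followed the labels. ERG had FPKM values of 0.264 and 0.435 in the vector and mAKT lines against 358 and 328 in the ERG and ERG/mAKT lines. AKT1 stood at 58.7 and 64.2 FPKM in the vector and ERG lines, at 156 in the mAKT line and at 281 in the ERG/mAKT line, so the lines with mAKT did not carry the same AKT1 level. Of the cell type markers, the basal keratin KRT5 stood at 3126 FPKM in the vector line, 1170 in the ERG line, 3642 in the mAKT line and 3519 in the ERG/mAKT line. KRT14 stood at 2936, 700, 2527 and 1185 FPKM in the same order, and KRT17 at 3105, 1768, 3262 and 4542, so the 3 basal keratins were lowest in the ERG line. The sum of the luminal keratins KRT8, KRT18 and KRT19 was 1806, 4569, 2062 and 2533 FPKM. KLK3, a defining gene of luminal prostate cells, was listed at 0 in every line. For stroma and blood, 1 of 5 fibroblast genes, 0 of 4 endothelial genes and 1 of 3 leukocyte genes reached an FPKM of 1. In bulk RNA, fewer cells of a type and less RNA per cell cannot be told apart.

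Levels of the 10 genes spanned more than 2 orders of magnitude in FPKM. DDIT4 was the highest in every line, at the 97.2 to 98.7 percentile of expressed genes, those reaching 1 FPKM in any of the lines, and ATF4 was next. CHAC1 or SESN2 was the lowest. The range over the 4 lines, highest over lowest FPKM, was 2.55-fold for CHAC1, 2.41-fold for DDIT4, 1.67-fold for ASNS and 1.53-fold for PSAT1, and it was between 1.16-fold and 1.44-fold for the other 6 genes. The median range was 1.37-fold for the members and 1.28-fold for the 11507 genes that reached 1 FPKM in every line. The ERG line held the lowest value of 7 members, against 31.6% of 12666 expressed genes, and the highest value of 0 members, against 31.9%.

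**Figure D1:**
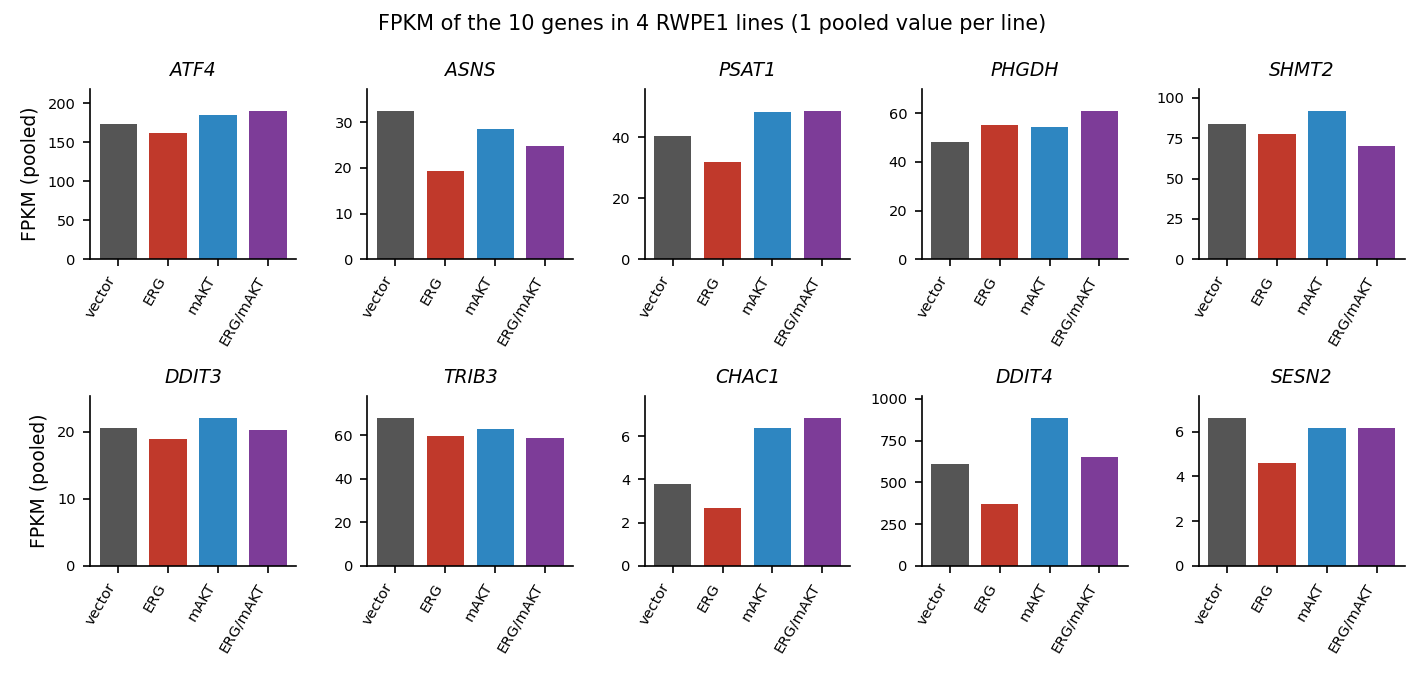
FPKM of the 10 genes, 1 panel each with its own linear axis from 0, in the vector, ERG, mAKT and ERG/mAKT lines; each bar is the authors' pooled value of 3 libraries, with no error available. The ERG line has the lowest bar for 7 genes, including ASNS, PSAT1, CHAC1, DDIT4 and SESN2, and the CHAC1 bars of mAKT and ERG/mAKT, at 6.38 and 6.84 FPKM, stand above those of vector and ERG.

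The factor itself varied little. ATF4 (chr22:39916563-39918691) stood at 174 FPKM in the vector line, 162 in the ERG line, 185 in the mAKT line and 190 in the ERG/mAKT line. Its largest ratio in the comparisons was 0.23 on the log2 scale, for ERG/mAKT over ERG, and 19.6% of genes had a higher one. These values are mRNA levels and leave the amount of ATF4 protein unmeasured.

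Among the enzymes, ASNS and PSAT1 had the widest ranges. ASNS, asparagine synthetase (chr7:97481428-97501854), stood at 32.4, 19.4, 28.5 and 24.8 FPKM in the vector, ERG, mAKT and ERG/mAKT lines. The ERG line was thus 1.67-fold below the vector line, and the mAKT line lay slightly below it, with a log2 ratio of -0.19. PSAT1 (chr9:80911990-80945009), the aminotransferase of serine synthesis, stood at 40.6, 31.8, 48.3 and 48.6 FPKM. Both lines with mAKT shared nearly the same PSAT1 level, and ERG/mAKT was 1.53-fold above ERG, just past the limit. PHGDH (chr1:120254418-120286849), the first enzyme of the same pathway, stood at 48.2, 55.1, 54.5 and 60.9 FPKM. It was the only member that was higher in the ERG line than in the vector line, by a log2 ratio of 0.19. SHMT2 (chr12:57623355-57634475), which converts serine to glycine in mitochondria, stood at 83.8, 77.5, 91.7 and 70.2 FPKM. Unlike the other enzymes it was lowest in the ERG/mAKT line. NDUFA4L2 overlaps the SHMT2 locus and had at most 0.282 FPKM.

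The stress arm held the flattest and the most variable members. DDIT3, which encodes the death-promoting factor CHOP (chr12:57881735-57914300), stood at 20.6, 19.0, 22.0 and 20.2 FPKM. TRIB3 (chr20:361272-378203), a pseudokinase that binds AKT and ATF4, stood at 67.9, 59.6, 63.0 and 58.7 FPKM. Both stayed within a 1.16-fold range. The DDIT3 locus overlaps MARS, at 65.2 to 69.2 FPKM, and without a stated strand for the libraries, reads from the overlap cannot be assigned with certainty. CHAC1 (chr15:41245635-41248717), which degrades glutathione, stood at 3.77 FPKM in the vector line, 2.68 in the ERG line, 6.38 in the mAKT line and 6.84 in the ERG/mAKT line. The lines with mAKT were both above those without it, by 1.69-fold for mAKT over vector and by 2.55-fold for ERG/mAKT over ERG. CHAC1 was a low gene, at the 18.8 to 39.1 percentile, and among the members only SESN2 had a similar level.

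Of the genes that restrain mTORC1, DDIT4 (REDD1, chr10:74033676-74035797) stood at 613 FPKM in the vector line, 368 in the ERG line, 885 in the mAKT line and 650 in the ERG/mAKT line. It was 1.67-fold lower in ERG than in vector. With mAKT it was 1.44-fold higher without ERG, just short of the limit, and 1.77-fold higher with ERG. SESN2 (chr1:28585962-28609002), a leucine sensor of the same pathway, stood at 6.61, 4.60, 6.17 and 6.17 FPKM. The vector line was 1.44-fold above the ERG line, and the other lines lay between them.

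Taking the comparisons in turn, mAKT over vector had 1 member past 1.5-fold upward, CHAC1, and 0 downward. Of the 12261 genes compared, 3.20% passed upward and 3.00% downward. The log2 ratio of CHAC1 was 0.76, exceeded by 1.76% of genes, and that of DDIT4 was 0.53, exceeded by 3.07%. The median log2 ratio was 0.11 over the members and 0.02 over all genes, and 7 members were higher against 54.9% of genes. Those directions depended on scale. With FPKM rescaled to the same sum in each line, only PSAT1, CHAC1 and DDIT4 stayed higher. Of all genes, 16.3% were then higher and 83.7% lower. The median log2 ratio became -0.08 over the members and -0.18 over all genes, so the members' median stayed above that of all genes. CHAC1, with a log2 ratio of 0.56, no longer passed 1.5-fold, which left 0 members past it.

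In the presence of ERG, the ratio of ERG/mAKT over ERG passed 1.5-fold upward for 3 members, PSAT1, CHAC1 and DDIT4, and downward for 0. Upward ratios made up 6.17% of the 12440 genes compared, and downward ones 9.57%. The log2 ratio was 1.35 for CHAC1, exceeded by 1.69% of genes, 0.82 for DDIT4, exceeded by 3.48%, and 0.61 for PSAT1, exceeded by 5.38%. The members' median was 0.29 where that of all genes was -0.05, and 8 members were higher against 43.0% of genes. TRIB3 and SHMT2 were the members that were lower. TRIB3 turned higher when ratios were centred on the median, and both did under the equal sum, where 82.0% of all genes were higher. This comparison shares no library with mAKT over vector.

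ERG over vector gave 2 members past 1.5-fold downward, ASNS and DDIT4, and 0 upward. Downward ratios made up 5.15% of 12371 genes, and upward ratios 9.63%. Both members had a log2 ratio of -0.74, with 2.81% of genes lower than ASNS and 2.85% lower than DDIT4. SESN2 followed at -0.52, CHAC1 at -0.49 and PSAT1 at -0.35. In all, 9 members were lower, against 51.5% of genes. PHGDH joined them when FPKM was rescaled to the same sum, where 90.1% of genes were lower. The median was -0.27 for the members and -0.01 for all genes. ERG over vector and ERG/mAKT over ERG share the ERG libraries, so 1 low level there enters both. The basal keratins were lower and the luminal keratin sum higher in the ERG line as well, as given above, and their part in the members' levels was not tested.

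When mAKT was present in both lines, ERG/mAKT over mAKT had 0 members past 1.5-fold in either direction. Of 12347 genes, 6.16% passed upward and 3.70% downward. DDIT4 had the lowest log2 ratio at -0.44, followed by SHMT2 at -0.39, and PHGDH had the highest at 0.16. The SESN2 ratio was 1.00-fold, with a sign that flipped when ratios were centred. The members' median was -0.05, and that of all genes was -0.08. The log2 ratio of CHAC1 was 0.10 here and -0.49 for ERG over vector, comparisons that share no library.

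**Figure D2:**
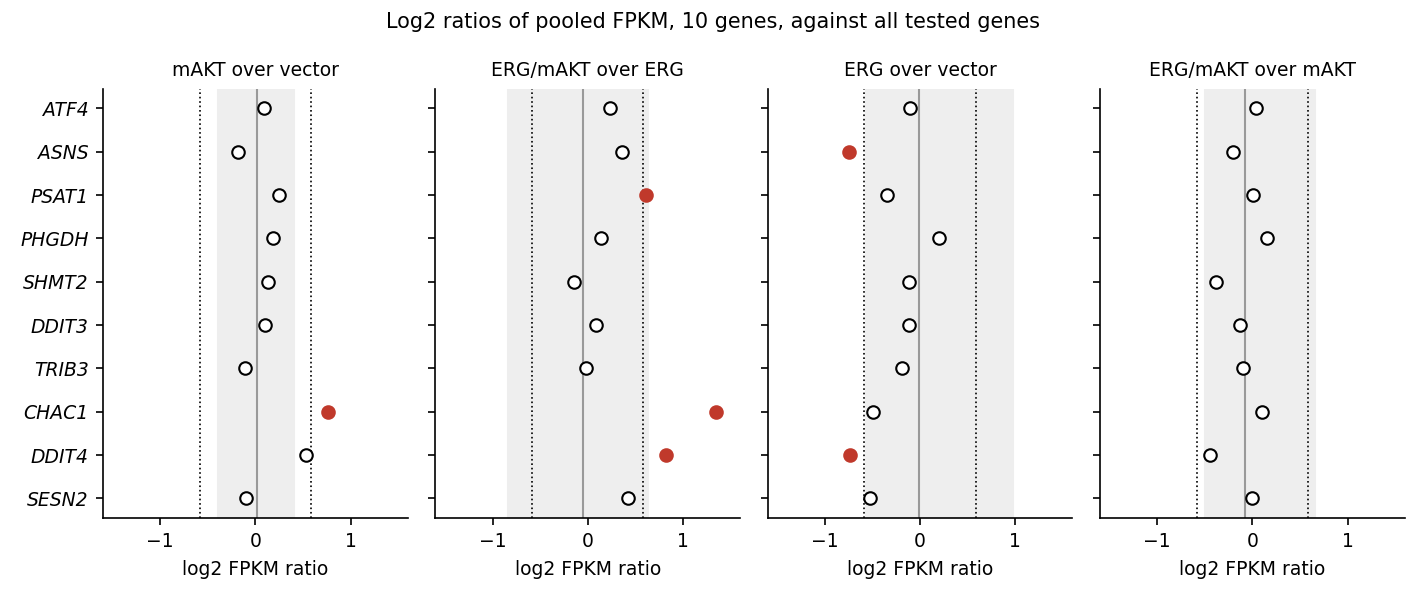
Log2 ratio of the pooled FPKM values for each of the 10 genes in the 4 comparisons, with no error available; filled points are past 1.5-fold (dotted lines), the grey band spans the 5 to 95 percentile of all genes compared and the grey line is their median. CHAC1 reaches 1.35 and DDIT4 0.82 in ERG/mAKT over ERG, ASNS and DDIT4 reach -0.74 in ERG over vector, and no gene passes the limit in ERG/mAKT over mAKT.

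The design crosses ERG with mAKT, so the mAKT ratio with ERG was set against the ratio without it. The difference of the log2 ratios was largest for CHAC1 at 0.59, followed by ASNS at 0.54, SESN2 at 0.52, PSAT1 at 0.36 and DDIT4 at 0.29. ASNS and SESN2 differed in sign, since each was lower with mAKT in the absence of ERG and higher with it in the presence of ERG. That difference was above 0 for 7 members and for 41.8% of 12454 genes, with medians of 0.22 and -0.08. Only CHAC1 passed 1.5-fold upward, by 1.51-fold, and 0 members passed it downward. Of the 12454 genes, 738 passed it upward and 1309 downward. The differences for DDIT3, PHGDH and SHMT2 were -0.01, -0.04 and -0.27. As the AKT1 level was higher in ERG/mAKT than in mAKT, the presence of ERG and the amount of AKT1 cannot be told apart in this contrast.

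**Figure D3:**
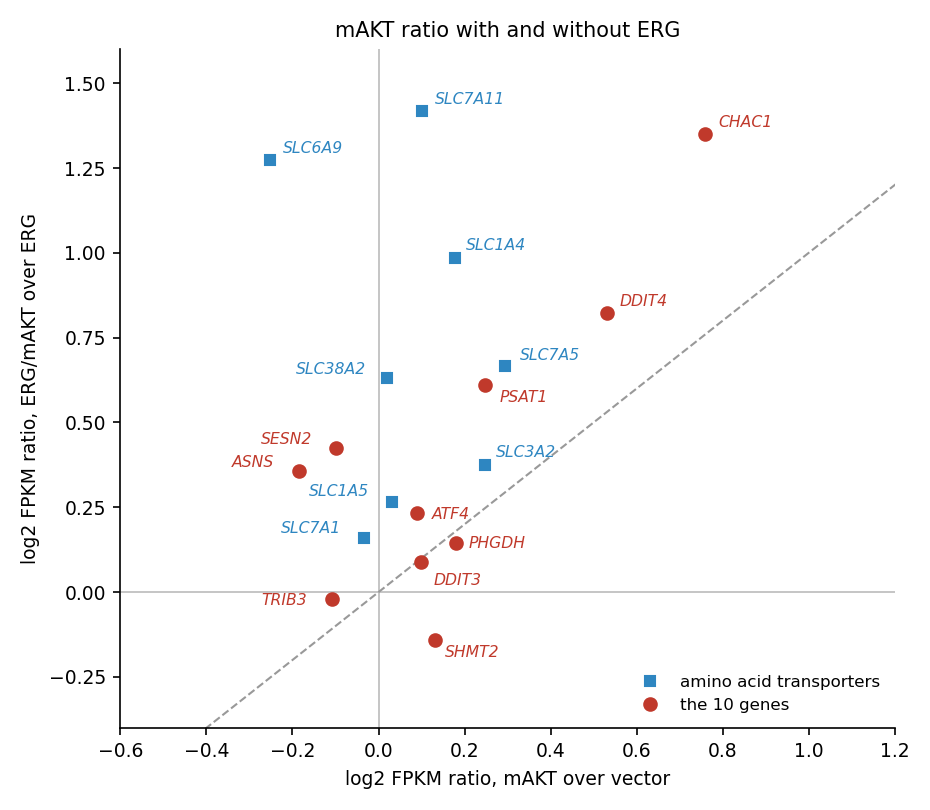
Log2 FPKM ratio of mAKT over vector (x axis) against ERG/mAKT over ERG (y axis) for the 10 genes (circles) and 8 ATF4-linked amino acid transporters (squares); the dashed line marks equal ratios, and each point is from pooled values. CHAC1 and DDIT4 are high on both axes, whereas SLC7A11 and SLC6A9 are high on the y axis only.

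The wider program was described with lists of genes from the same pathways, none of them members. Among 8 amino acid transporters, 5 were past 1.5-fold upward in ERG/mAKT over ERG and 0 downward, where 6.17% of all genes passed upward and 9.57% downward. Their median log2 ratio was 0.65 against -0.05 for all genes. SLC7A11, the cystine importer, stood at 4.36, 2.11, 4.68 and 5.63 FPKM in the vector, ERG, mAKT and ERG/mAKT lines, 2.67-fold higher in ERG/mAKT than in ERG. SLC6A9, a glycine transporter, stood at 2.26 FPKM in ERG and 5.48 in ERG/mAKT. The remaining transporters past the limit were SLC1A4, a carrier of neutral amino acids, SLC7A5, the leucine transporter, and SLC38A2. In ERG over vector, SLC38A2, SLC6A9 and SLC7A11 were lower past 1.5-fold and 0 were higher, against 5.15% and 9.63% of all genes, and the median was -0.47 against -0.01. These 3 transporters enter both counts, and the 2 comparisons share the ERG libraries, so 1 low level there enters both. The list counts were not repeated with FPKM rescaled to the same sum. SLC38A2, the glutamine and alanine carrier that is induced by amino acid shortage, stood at 120, 63.0, 122 and 97.4 FPKM. In mAKT over vector 0 transporters passed, and in ERG/mAKT over mAKT 1 did, SLC6A9, upward, as did 6.16% of all genes.

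Of 9 other amino acid and one-carbon enzymes that could be compared, 1 passed 1.5-fold in any comparison, PSPH, the last enzyme of serine synthesis, at 8.00 FPKM in ERG and 12.1 in ERG/mAKT. Upward ratios made up 6.17% of all genes there, and the list's median log2 ratio was 0.05. Of 12 tRNA synthetases linked to ATF4, 0 passed in any comparison, and the same held for 8 other cytosolic synthetases. The median for ERG/mAKT over ERG was 0.00 for the former (-0.0042) and -0.03 for the latter. The 4 eIF2 kinase genes (EIF2AK1 to EIF2AK4), EIF2S1, which encodes eIF2α, and PPP1R15B, which encodes a subunit of its phosphatase, had 0 past the limit in any comparison, and phosphorylation of eIF2α was not measured here.

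The stress factors did not share one direction. Of 11 compared, 4 were higher and 1 lower past 1.5-fold in ERG over vector, where 9.63% of all genes were higher and 5.15% lower. The median log2 ratio was 0.38 against -0.01 for all genes. GDF15, a stress cytokine, stood at 4.73, 10.9, 6.56 and 22.9 FPKM, higher in both lines with ERG. NUPR1, a stress-induced chromatin protein, stood at 9.13, 4.98, 8.04 and 17.9 FPKM, lowest with ERG alone and highest with ERG and mAKT. PPP1R15A (GADD34), which directs eIF2α dephosphorylation, stood at 26.3, 43.3, 20.5 and 31.2 FPKM. ATF3 and EIF4EBP1 were the others higher in ERG. HERPUD1, of the ER-associated degradation machinery, stood at 20.0, 19.8, 23.8 and 12.2 FPKM, lowest in ERG/mAKT. In ERG/mAKT over ERG, 2 of the 11 (GDF15 and NUPR1) were higher and 1 (HERPUD1) lower, against 6.17% and 9.57% of all genes. In ERG/mAKT over mAKT, 4 were higher and 1 lower, against 6.16% and 3.70%. In mAKT over vector 0 passed.

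Genes of ER chaperones and folding are driven mainly by ATF6 and XBP1. Of 12 compared in ERG/mAKT over mAKT, 0 were higher and 2, HSPA5 and PDIA4, lower past 1.5-fold, where 6.16% and 3.70% of all genes were, with a median log2 ratio of -0.38 against -0.08 for all genes. HSPA5 (BiP), the main chaperone of the ER, stood at 320, 293, 366 and 218 FPKM, and PDIA4, a disulfide isomerase, at 49.8, 37.5, 49.6 and 30.4 FPKM. In the other comparisons 0 of the 12 passed. Of 13 mTORC1 pathway genes, 1 passed, SESN3, lower in ERG over vector, as were 5.15% of all genes, and higher in ERG/mAKT over ERG, as were 6.17%, and none of the others did in the 4 comparisons. SESN3 stood at 1.70, 0.714, 1.55 and 1.39 FPKM, a low level, and was named after its values were seen, as were ATF3, EIF4EBP1, SLC1A4 and SLC7A5.

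**Figure D4:**
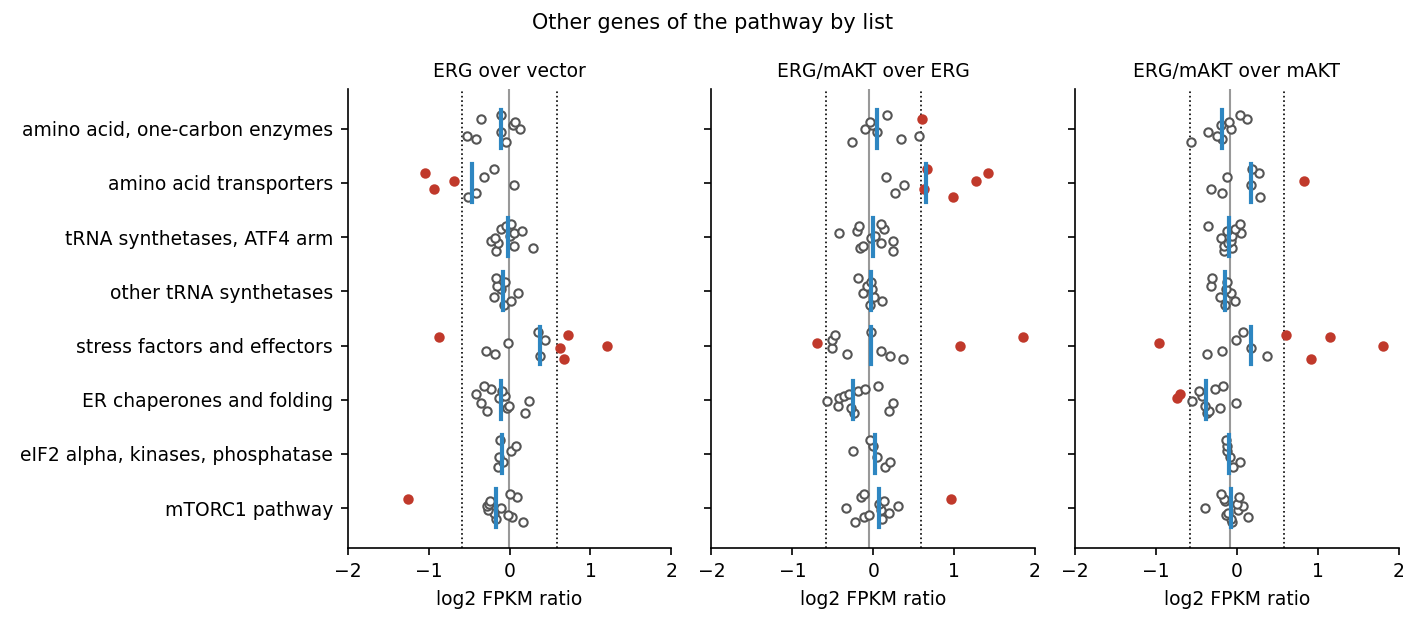
Log2 FPKM ratios of the genes of each pathway list in 3 of the comparisons (points, 1 gene each, from pooled values, filled where past the dotted lines at 1.5-fold), with the list's median (blue bar) and the median of all genes (grey line). The amino acid transporters have a median of 0.65 in ERG/mAKT over ERG and -0.47 in ERG over vector, whereas both groups of tRNA synthetases stay within 1.5-fold in the 3 comparisons shown.

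Across the 4 lines, 5 genes outside the members had the pattern most like that of CHAC1, the member with the widest range, by Euclidean distance between centred log2 FPKM values among 8122 genes. They were CSTA, which encodes the cornified envelope protein cystatin A, at a distance of 0.11, SNORA6 at 0.16, DST, the cytolinker dystonin, at 0.22, LINC01503 at 0.26 and TSPAN13 at 0.32. CSTA stood at 67.1, 48.1, 125 and 127 FPKM. Among the members DDIT4 was nearest to CHAC1, at 0.57. With 4 lines, closeness of this kind is a description.

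Accessible chromatin lay at every member. An ATAC-seq peak overlapped the 1 kb on either side of the start for 10 of 10 genes in each of the 3 lines, where the share of 11389 expressed genes was 91.0% in ERG, 90.6% in mAKT and 87.5% in ERG/mAKT. The members' share is near that background. The ASNS peak had the highest enrichment among the members, with a fold enrichment of 12.6 in ERG, 10.2 in mAKT and 12.0 in ERG/mAKT, although its FPKM was lowest in ERG. The CHAC1 peak had a fold enrichment of 7.39, 8.09 and 8.39, and the DDIT4 peak 3.73, 3.64 and 4.16, in the same order. Each list is from 1 library per line and is scaled to that library's own background, so those values have no error. The SHMT2 peak in ERG/mAKT began 5 bases after the start and did not cover it.

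ERG binding was mapped in the line with ERG and mAKT, and the samples hold no ERG ChIP-seq of the line with ERG alone. Of the 10 genes, 0 had an ERG peak within 1 kb in ERG/mAKT, where 1.87% of genes did. The members' count is near that share. Within 20 kb there was a peak near TRIB3, DDIT4 and SESN2, 3 of 10, against 17.5% of genes. DDIT4 had 2 such peaks. The nearer one, 8896 to 9004 bases after the start, had a fold enrichment of 4.24 and a -log10 q-value of 0.686, held 0 copies of the ETS core GGAA and lay in no ATAC-seq peak of the 3 lines. The stronger one was upstream, at chr10:74023565-74023677 (hg19), bases -10113 to -10001 relative to the start and outside annotated genes, with a fold enrichment of 4.94 and a -log10 q-value of 1.51. It ranked 568 of 9113 peaks, of which 450 had a q-value of at most 0.01, and lay in ATAC-seq peaks of the ERG, mAKT and ERG/mAKT lines. Its plus strand is shown because it is the peak with accessible chromatin nearest a member that differed between lines, with the core, here as its reverse complement, in capitals.
DDIT4 upstream peak: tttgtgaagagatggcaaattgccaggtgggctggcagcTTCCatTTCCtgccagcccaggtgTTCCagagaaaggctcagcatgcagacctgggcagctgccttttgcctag
The core occurs 3 times, and 69.8% of ERG peaks held it at least once in a window of 109 bases around the summit. The longer ETS form GGAAGTG was absent from it and occurred in 3.30% of those windows. In VCaP cells given DMSO, 2 members had an ERG peak within 1 kb, ATF4 and TRIB3, against 5.09% of genes. The ATF4 peak, at -320 to -48, had a fold enrichment of 4.93 and a -log10 q-value of 2.83, and the TRIB3 peak, at -790 to -512, had a fold enrichment of 3.48 and a -log10 q-value of 0.667.

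ERK2, a kinase of the MAPK pathway that was also mapped on chromatin, had peaks within 1 kb of PSAT1 and DDIT4 in both the vector and the ERG line, 2 of 10 genes, against 13.9% of genes in vector and 8.83% in ERG. Most ERK2 peaks were called on an unadjusted p-value, and 306 of 41276 in vector and 178 of 5721 in ERG had a q-value of at most 0.01. DDIT4 held the larger signal of the members. Its peak in the vector line covered 43 to 333 bases after the start, with a fold enrichment of 5.54 and a rank of 166 among 41276 peaks. In the ERG line a peak spanned -741 to 304, with a fold enrichment of 5.25 and a rank of 203 among 5721. Within 5 kb of the DDIT4 start there were 4 ERK2 peaks in vector and 6 in ERG, counts reached by 0.817% and 0.193% of genes. These counts depend on how a stretch of signal was split into peaks. The vector peak at 1734 to 3587 overlapped separate ERK2 peaks of the ERG line at 2154 to 2429, 2585 to 2895 and 3051 to 3599. The strongest DDIT4 peak lay downstream in both lines, at 1734 to 3587 in vector, with a -log10 q-value of 5.78, and at 2585 to 2895 in ERG, with one of 5.21. No other DDIT4 peak of the ERG line had a q-value of at most 0.01. The PSAT1 peaks were weaker, with fold enrichments of 3.53 and 3.17.

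The repressive mark H3K27me3 was called within 1 kb of 0 members in the vector, ERG and ERG S96E lines, where 8.81%, 3.28% and 7.28% of genes had a called region. Few regions had a q-value of at most 0.01: 29 of 492265 in vector, 39 of 228233 in ERG and 3413 of 252784 in S96E. At that limit 0.00878%, 0.00878% and 2.27% of genes had a region within 1 kb. The strongest region near a member was upstream of SHMT2 in the S96E line, at -12794 to -4945 relative to its start, 7850 bases long with a fold enrichment of 4.47. No expression values for the S96E line were used here, so that region has no matched SHMT2 level.

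**Figure D5:**
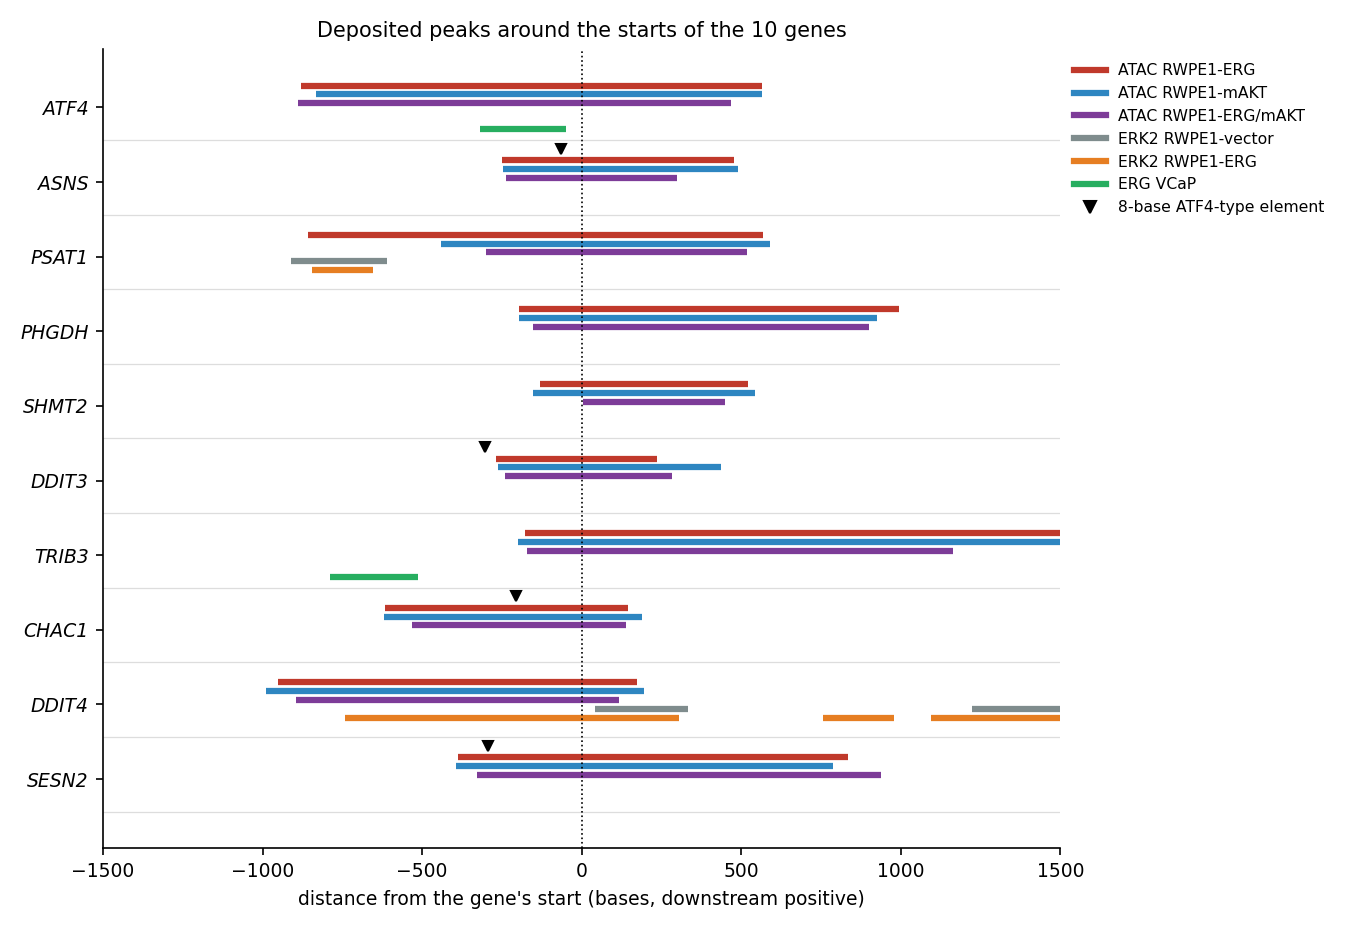
Extent of the called peaks (bars, colored by assay and line) and of the 8-base element (triangles) around the start of each of the 10 genes; the x axis is the distance from the start in bases, cut off on either side. ATAC-seq peaks lie at each gene, ERK2 peaks at PSAT1 and DDIT4, VCaP ERG peaks at ATF4 and TRIB3, and the DDIT3 element lies outside its ATAC-seq peaks.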

How the data were processed

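RNA-seq reads (polyA RNA, random-hexamer cDNA) were aligned by the authors with TopHat2 to hg19, and Cuffdiff pooled the 3 libraries of each line into the deposited FPKM values. The same table holds the authors' fold changes, test statistics, p-values and q-values for the 6 pairs of lines, which were not used. Of 26253 gene IDs, 4 with conflicting values were dropped. Nothing in the labels says that libraries came from separate cultures. For the peak lists, the authors aligned reads with Bowtie2 to hg19, removed duplicates and called peaks with MACS2 (version 2.1.2 or 2.2.7.1 where the file headers give one), and DNA of 3 ChIPs was pooled into 1 library. The deposited fold enrichment is a ratio over input or local background, and the deposited p-values and q-values are on a -log10 scale. A peak list of LY294002-treated VCaP cells and one of RWPE1 ATAC-seq, whose contents disagree with their sample labels, were not used.

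Ratios of FPKM were taken with no pseudocount among genes reaching 1 FPKM in either line. Starts came from GENCODE on GRCh37 and matched 11389 of 12666 expressed genes (89.9%), and promoters came from RefSeq on GRCh38 and, as a longer window, from GRCh37. Peaks were counted where they overlapped 1 kb on either side of a start by 1 base. The letters searched on both strands were TGATGNAA for ATF4 with C/EBP, TGACGTCA for CREB-type factors, GGAAGTG for ETS factors, TGTTTAC for forkhead factors, and the ER stress element (CCAAT followed by CCACG 9 bases on). No match overlapped another. In the RefSeq promoters the CREB-type, forkhead and ER stress letters were found in 0 members (2.25%, 4.19% and 0.0916% of genes), and the ETS letters in 1, DDIT3 (13.4%).

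Genes outside the members were named where they were, in a pathway list and comparison, among the 2 largest rises or 2 largest falls past 1.5-fold and the higher line reached 5 FPKM. The nearest patterns were sought among genes reaching 5 FPKM in every line. Some of the cell type markers are not reported here. The members and lists were chosen with earlier results of these data known. Scripts used Python 3.11.15, numpy 2.4.6, pandas 2.3.3 and pysam 0.24.0 and were tested on simulated data.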

Additional observations from a re-analysis of the deposited data

How the results depend on the processing

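No paired analysis was possible because the table holds 1 pooled value per line, and for the same reason no library could be left out. Members past 1.5-fold numbered 1 for mAKT over vector, 3 for ERG/mAKT over ERG, 2 for ERG over vector and 0 for ERG/mAKT over mAKT. At 2-fold the first 3 of these counts became 0, 1 and 0, and 3.16% of all genes passed upward in ERG/mAKT over ERG. At a lower limit, 0.32 on the log2 scale, the 4 counts became 2 and 5 upward and 5 and 2 downward. In the same order and direction, 8.32%, 14.5%, 15.6% and 14.3% of all genes passed that limit. With FPKM rescaled to the same sum, the first 3 counts became 0, 6 upward and 9 downward. Upward ratios then made up 21.6% of all genes in ERG/mAKT over ERG, and downward ratios 48.1% in ERG over vector. That scaling moved the median log2 ratio of all genes to -0.18, 0.32 and -0.57, and the share of upward ratios among all genes past 1.5-fold from 51.6% to 29.0%, from 39.2% to 84.0% and from 65.2% to 8.16%. The summed FPKM it equalizes was 846035 in vector, 1246060 in ERG, 971481 in mAKT and 959546 in ERG/mAKT, with MIR6087 the highest gene in each. Over single members, comparisons and alternatives, 296 values kept their side of the limit, 24 did not, and 0 past the limit reversed. Changing the FPKM minimum or the fold limit left each member's ratio as it was. Part of the 296, and of the 0, was therefore fixed in advance. The 1 member whose mAKT ratios differed past 1.5-fold became 0 with a pseudocount of 1 and 3 with centred ratios. The share of all genes was not computed for those settings. For peaks, 5 kb in place of 1 kb moved ERK2 in vector from 2 to 5 and H3K27me3 from 0 to 6 in vector, 1 in ERG and 2 in S96E, where the shares of all genes were 32.9%, 51.4%, 13.9% and 18.8%. A q-value of at most 0.01 left 1 member for ERK2 in vector, 0 for ERK2 in ERG and 1 for ERG in VCaP. The shares of all genes at that limit were 0.439%, 0.342% and 1.72%. The windows of 20 kb, which gave 3 members for ERG in ERG/mAKT, and of 500 bases, which gave 4 in place of 2 with TGATGNAA, were chosen after seeing the data. Depth behind the FPKM is unknown, and CHAC1 and SESN2 are the low members.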

Other observations

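FOXO factors are held out of the nucleus by AKT, and their known targets include SESN3, BCL6, IRS2 and KLF6. Of 11 FOXO targets compared, 0 passed 1.5-fold in mAKT over vector, with a median log2 ratio of -0.07, where 3.20% of all genes passed upward and 3.00% downward. In ERG over vector, 3 were lower past 1.5-fold, BCL6, IRS2 and SESN3, and 0 were higher, against 5.15% and 9.63% of all genes. IRS2, an adaptor of the insulin receptor, stood at 11.6 FPKM in vector, 7.40 in ERG, 8.56 in mAKT and 6.15 in ERG/mAKT. In ERG/mAKT over ERG, where 6.17% of all genes were higher and 9.57% lower, 2 were higher, BCL6 and SESN3, and 1 was lower, KLF6, a zinc finger factor at 58.9, 78.6, 46.9 and 47.5 FPKM in the 4 lines. ERG over vector and ERG/mAKT over ERG share the ERG libraries. In ERG/mAKT over mAKT 0 passed. BCL6 and SESN3 were named after their values were seen.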
